A study of Mus musculus with 8 samples.

Results

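Genomic imprinting restricts the expression of a gene to the copy inherited from the mother or from the father. The restriction is set by DNA methylation laid down in the germ line at control regions, and because a control region acts on several genes at once, imprinted genes lie in clusters. Many of them act on fetal and placental growth, and several clusters also hold long non-coding RNAs and microRNAs. The genes described here are 36 imprinted genes of the mouse, chosen by name as the well-studied members of the known clusters, of 55487 genes counted. Of these 36, 28 lie in 9 clusters of at least 2 genes of the list, and 8 were taken alone. All 36 matched a single gene of the annotation.

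RNA-seq was performed on Lewis Lung Carcinoma (LLC) cells, a mouse lung carcinoma line, with 4 wild-type and 4 ΔAgo2 libraries. Ago2 is the Argonaute protein that cleaves RNA targets of small RNAs. Both groups were kept in DMEM with fetal bovine serum for embryonic stem cells and antibiotics, and no other treatment is given. All libraries were entered as 1 batch, which their titles and library names do not state. The ΔAgo2 cells were made with a lentiviral CRISPR-Cas9 vector, puromycin selection and sorting of single cells, so that they descend from clones, and which clone was sequenced is not given in the sources used here. A difference between the genotypes therefore cannot be told apart from a difference between a clone and the parental population. The replicates are called biological by their labels, which do not say how the cultures were kept separate, so the p-values below measure the spread between these libraries. In bulk RNA, fewer cells that express a gene and less RNA per cell cannot be told apart, and the counts do not separate the parental copies.

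Totals ran from 39628101 to 68530912 counts per library, and the 36 genes together took from 0.185% to 0.234% of them. Wild-type replicate 4 stood apart from the other libraries, with a median Spearman correlation of 0.807 within its genotype, where the other 3 had 0.935 to 0.952, and 0.540% of counts on mitochondrial genes against 2.39% to 4.51% elsewhere. The plot of log2 fold changes gives each tested gene with and without it. The 4 ΔAgo2 libraries had median correlations of 0.982 to 0.984 within their genotype, above every wild-type library. The wild-type libraries thus varied more among themselves, and the part of this in the results below was not tested. The transcript of Ago2 ranged from 119 to 519.5 CPM (counts per scaled library size) in wild-type and from 293 to 408 CPM in ΔAgo2 libraries, which left the genotypes overlapping, and each library carries the name its label gives. Over the 5 epithelial and 4 mesenchymal markers, Krt8, Krt18, Vim and Fn1 were high in both genotypes while Epcam was at or under 3 counts in every library, and the summed TPM (a level that accounts for gene length) of the epithelial list was 246 to 1673 in wild-type libraries and 729.8 to 1133 in the ΔAgo2 ones. The summed TPM of the mesenchymal list was 2929 to 4075 in wild-type and 4033 to 5216 in ΔAgo2 libraries, with a narrow overlap, and its part in the results below was not tested. All 4 lung epithelial and all 5 immune markers were at or under 3 counts in every library.

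The sequences below belong to the Mest locus, where the only imprinted gene past the test threshold lies. The first is the 250 bases before a transcription start of Mest on the plus strand, chr6:30737800-30738049, inside the gene but outside its annotated exons. Capitals mark the hexamer TGCCGC, here in its reverse complement GCGGCA, which is known as the core of the motif bound by the imprint-protecting zinc finger protein ZFP57. The other sequences are the mature microRNAs of Mir335, which lies in an intron of Mest, at chr6:30741314-30741336 and chr6:30741354-30741375 on the plus strand, with the seed (bases 2 to 8) in capitals. All are RefSeq sequences on GRCm38.p6.
Mest, upstream: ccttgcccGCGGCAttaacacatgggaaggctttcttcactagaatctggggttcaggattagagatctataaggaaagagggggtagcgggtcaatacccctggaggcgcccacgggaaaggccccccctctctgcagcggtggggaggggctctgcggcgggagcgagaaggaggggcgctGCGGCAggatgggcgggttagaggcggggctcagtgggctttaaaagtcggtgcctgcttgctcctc
mmu-miR-335-5p: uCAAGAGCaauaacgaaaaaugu
mmu-miR-335-3p: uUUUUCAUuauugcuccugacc

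The Mest window held 2 copies of the hexamer and 14 CG dinucleotides. Mest had 3 promoter windows, and no other of them held more copies or more CG. Among 32851 promoter windows of the same length, 8.68% held the hexamer on either strand, 0.874% held at least 2 copies and 29.4% held at least 14 CG. These shares are per window, not for the highest of 3 windows of a gene. Of the 36 imprinted genes, 30 had a promoter in the table, and 7 of their 47 windows, from 6 genes, held the hexamer. These matches describe the letters only. The libraries were made from polyadenylated RNA, which leaves out mature microRNAs: the 44 microRNA genes of the clusters had no gene tested, 43 had no count in any library, and Mir335 had 1 count in 1 wild-type library.

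The imprinted genes differed widely in expression in LLC cells, from no counts for Zim1 to a mean of 360 TPM for Gnas. Over the 8 libraries, 9 of the 36 genes had a mean TPM of at least 10, 7 lay from 1 to 10 and 20 lay under 1. Gnas, which encodes the stimulatory G protein alpha subunit, took 45.4% of the summed TPM of the 36 genes. Igf2r, Grb10, the Mest and Peg10-Sgce clusters and the single genes Gnas, Slc38a4, Zrsr1 and Impact were active, whereas the Dlk1-Meg3 cluster was at or near 0, as was the H19-Igf2 cluster except for H19 in wild-type replicate 1 (7.38 TPM). In the heat map of TPM, wild-type replicate 4 is darker than the other libraries at Ube3a, Impact and Zrsr1.

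**Figure D1:**
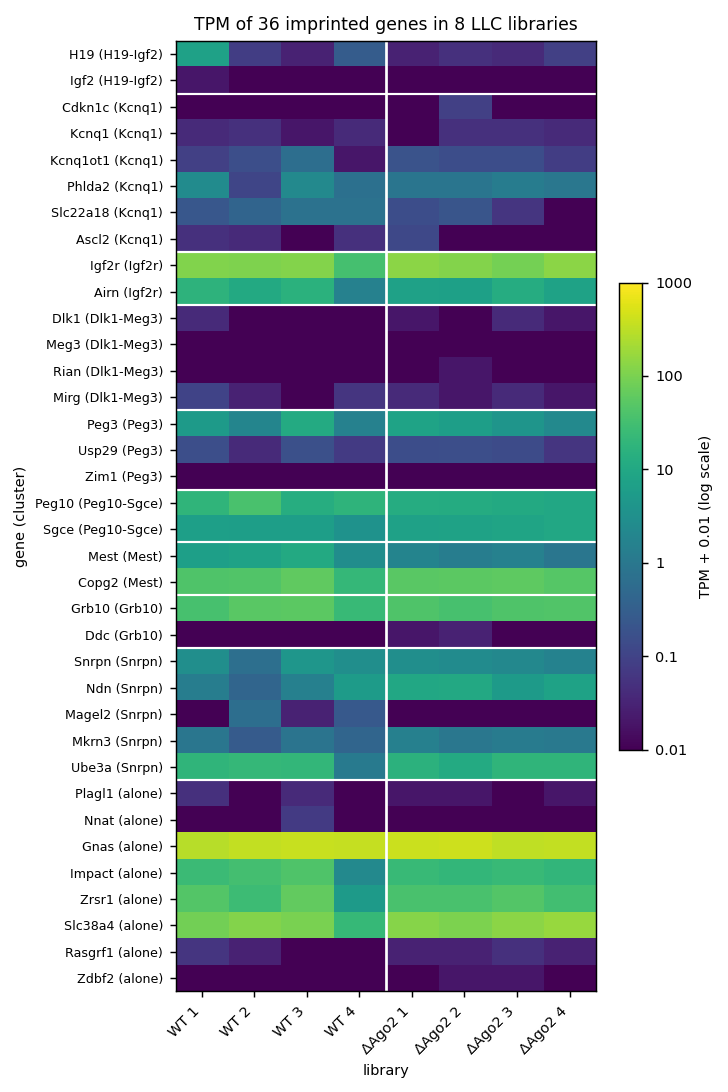
Heat map of TPM + 0.01 (log color scale) of the 36 imprinted genes (rows, by cluster, separated by white lines) in the 4 wild-type (WT) and 4 ΔAgo2 libraries (columns). Gnas was brightest in each library, and the 4 genes of the Dlk1-Meg3 cluster stayed under 0.1 TPM in all libraries.

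Of the 36 genes, 19 passed the filter on low counts and were tested with edgeR. A single one, Mest, passed an adjusted p of 0.05, and it was lower in ΔAgo2 cells; over all 14228 tested genes the percentages called were 0.295% in either direction, 0.218% lower and 0.0773% higher. At an unadjusted p of 0.05, Mest and Peg10 were lower and no gene of the 19 was higher, against 4.62% lower and 2.72% higher of all tested genes. The 4 CPM values of a genotype lay on 1 side of the other 4 for the same 2 genes, against 6.07% of all genes in the fit and 2.98% in the lower direction. The 19 genes had a median log2 fold change (ΔAgo2 over wild-type) of -0.12, with 8 above 0 and 11 below, and the 14228 genes one of -0.11. With DESeq2, 23 of the 36 genes had an adjusted p and Mest was again the only one called, where 2.23% of all genes with an adjusted p were called (1.48% lower, 0.742% higher). With sample weights (voomWithQualityWeights of limma), Mest, Peg10 and Ndn were called, where 1.81% of all genes were called, 1.08% lower and 0.731% higher.

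By the copy that is expressed, 13 of 19 paternally expressed genes were tested, with a median log2 fold change of -0.12. Mest and Peg10 belong to this class. Of 12 maternally expressed genes 3 were tested, with a median of 0.21, and of 5 genes whose expressed copy depends on the tissue 3 were tested, with a median of -0.15. No gene of the last classes passed the threshold with edgeR or had an unadjusted p under 0.05. The plot of log2 fold changes shows Mest and Peg10 at the lower end and Ndn at the upper end.

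**Figure D2:**
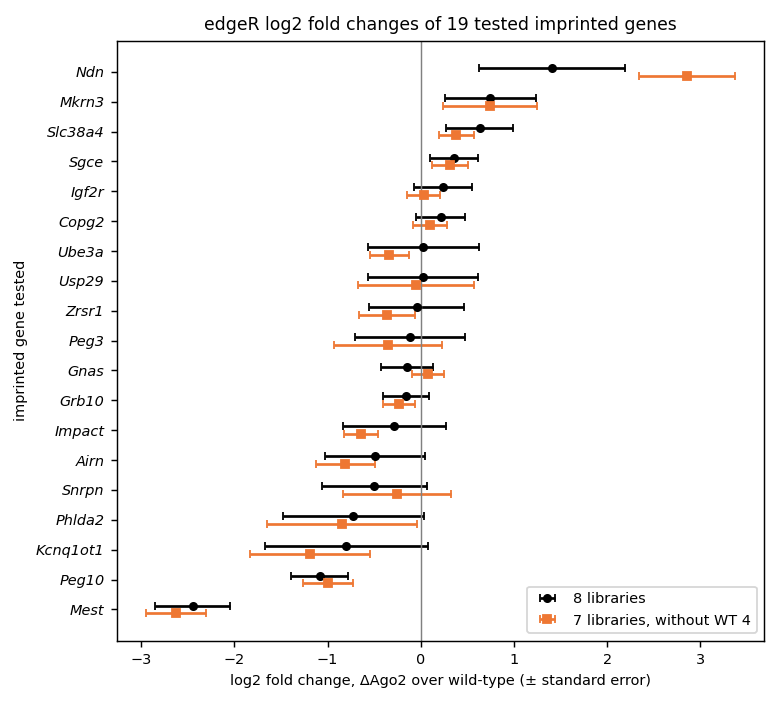
Log2 fold change, ΔAgo2 over wild-type, of the 19 tested imprinted genes (points, with standard errors as bars), from edgeR with all 8 libraries (black circles) and without wild-type replicate 4 (orange squares). Mest at -2.45 and Peg10 at -1.09 stay below 0 in both, and Ndn moves from 1.41 to 2.86.

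Mest fell in ΔAgo2 cells while its neighbor Copg2 did not pass the test. Mest encodes a protein with an alpha/beta hydrolase fold and is expressed from the paternal copy in embryonic mesoderm. It lies on the plus strand of chr6:30723547-30748465 (ENSMUSG00000051855.15, GRCm38). In the order of their replicate numbers, wild-type libraries held 423, 548, 832 and 161 of its reads and ΔAgo2 libraries 116, 61, 74 and 54. After scaling, these were 8.60, 7.76, 12.4 and 4.999 CPM in wild-type and 1.89, 1.45, 1.81 and 1.02 CPM in ΔAgo2. Each wild-type library was above each ΔAgo2 library, with the lowest wild-type value in replicate 4. The means were 8.43 ± 3.04 and 1.54 ± 0.397 CPM (SD, n = 4), which is a fitted level 5.46-fold lower in ΔAgo2 (log2 fold change -2.45, standard error 0.40, adjusted p = 0.0386 with edgeR's quasi-likelihood test and Benjamini-Hochberg adjustment).

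The direction of Mest held in all 19 alternative analyses, with log2 fold changes from -2.62 to -1.64, and the adjusted p ranged from 1.702e-07 with DESeq2 to 0.197 without ΔAgo2 replicate 2. With a library left out the direction could not turn, because each wild-type library lay above each ΔAgo2 library. The other alternatives rest on the same reads, so the shared direction is no separate evidence. The call held in 8 of the 19 and was lost in 11. In edgeR fits, leaving out wild-type replicate 1 or 3 gave an adjusted p of 0.0894 or 0.0712, and leaving out ΔAgo2 replicates 1 to 4 gave 0.176, 0.197, 0.156 and 0.172. Without wild-type replicate 4 it was 0.0172, and with the replicate number as a block 0.0849.

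Copg2 encodes a gamma subunit of the coatomer that coats Golgi vesicles, and is read from the opposite strand of chr6:30747554-30896794. It was at 69.5, 58.0, 91.2 and 48.9 CPM in wild-type and at 72.7, 78.1, 89.0 and 70.1 CPM in ΔAgo2 replicates 1 to 4. The ranges overlapped, and the log2 fold change of Copg2 was 0.21, with a standard error of 0.26 and an adjusted p of 0.849 from edgeR. The ends of both genes overlap by 912 exonic bases, 23.1% of the exonic bases of Mest and 17.8% of those of Copg2. The kit keeps the strand, but the strand setting of the counting is not given in the sources used here, so reads in this overlap may have been assigned to neither gene.

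Within a library the ratio of both genes does not depend on the scaling between libraries. The log2 ratio of Copg2 to Mest counts was 3.01, 2.90, 2.88 and 3.29 in wild-type and 5.27, 5.75, 5.62 and 6.10 in ΔAgo2 replicates 1 to 4. The groups did not overlap, wild-type replicate 4 included, and the difference of 2.66 had p = 0.0286 in an exact permutation test (two-sided), the smallest value that 4 against 4 libraries allow. Over the 6 pairs with at least 10 counts of both genes in every library, of 13 pairs listed, the adjusted p was 0.0571. This ratio rests on the same counts as the test of Mest and is no separate evidence for it. Of 34 annotated genes within 500 kb of the start of Mest, 10 were tested, none was called with edgeR, none had an unadjusted p under 0.05, and the groups did not overlap in 2, against 6.07% of all tested genes.

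Peg10 was lower in ΔAgo2 cells by its values, without passing the adjusted threshold. It is a gene derived from a retrotransposon that is required for the placenta, and it lies head to head with Sgce, which encodes epsilon-sarcoglycan of the dystrophin complex, with 99 bases between their start sites (Peg10 on the plus strand, chr6:4747306-4760517; Sgce on the minus strand, chr6:4674350-4747207). Peg10 had 40.0, 61.3, 25.3 and 52.7 CPM in wild-type and 22.0, 21.5, 21.8 and 19.2 CPM in ΔAgo2 replicates 1 to 4. All wild-type libraries were above all ΔAgo2 libraries, and the wild-type values varied far more, with means of 44.8 ± 15.7 and 21.1 ± 1.31 CPM (SD, n = 4). The log2 fold change was -1.09 (standard error 0.30), with an unadjusted p of 0.00485 and an adjusted p of 0.301 from edgeR's quasi-likelihood test. Over the 19 alternatives it was called only with sample weights (limma, adjusted p = 0.0491), and its log2 fold change ran from -1.28 to -0.76.

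Sgce had 22.6, 16.9, 19.7 and 16.7 CPM in wild-type and 20.04, 22.0, 25.8 and 29.4 CPM in ΔAgo2 replicates 1 to 4. The ranges overlapped, and its log2 fold change of 0.36 (standard error 0.26) had an adjusted p of 0.758 with edgeR. It turned to -0.33 when each library was corrected for GC content, which is 38.4% for Sgce and 47.2% for Peg10. The log2 ratio of Sgce to Peg10 was -0.82, -1.86, -0.36 and -1.66 in wild-type and -0.13, 0.03, 0.25 and 0.62 in ΔAgo2 replicates 1 to 4. These groups did not overlap, and the difference was 1.37 (exact permutation test, p = 0.0286, adjusted p = 0.0571 over the 6 pairs). This ratio rests on the same counts as the test of Peg10 and is no separate evidence for it. Of the 25 genes within 500 kb of the start of Peg10, 4 were tested, and none was called with edgeR or had an unadjusted p under 0.05. The groups did not overlap in 1 of them, against 6.07% of all tested genes. Farther along the cluster, the paraoxonase genes Pon2 and Pon3 did not overlap between the genotypes. This held for only these 2 of 26 other genes tested in the clusters or beside the genes taken alone, against the same 6.07% of all tested genes. Pon2 was at 35.8 ± 15.3 and 60.6 ± 6.13 CPM and Pon3 at 23.0 ± 10.2 and 37.3 ± 3.65 CPM in wild-type and ΔAgo2 (SD, n = 4). Wild-type replicate 4 was the lowest library for both, at 14.8 and 7.82 CPM, and the other wild-type libraries were at 34.0 to 47.9 and 26.5 to 29.0 CPM. Their adjusted p of 0.681 and 0.729 with edgeR missed the threshold.

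**Figure D3:**
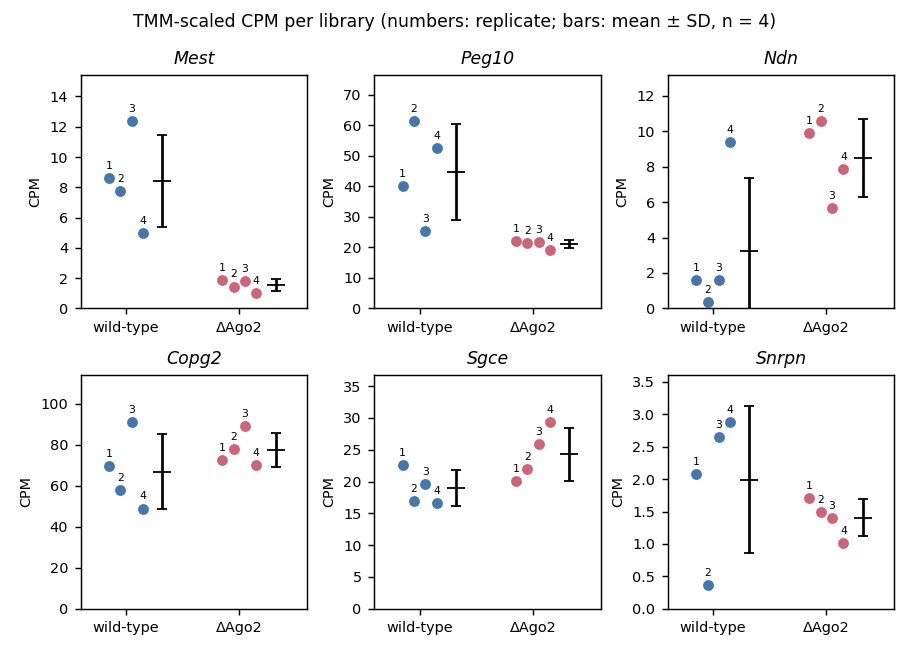
CPM per library (points, with the replicate number) in wild-type and ΔAgo2 cells for Mest, Peg10 and Ndn (upper panels) and for Copg2, Sgce and Snrpn of the same clusters (lower panels); bars give the mean ± SD (n = 4), and the axis is cut at 0 below. For Mest and Peg10 all wild-type points lie above all ΔAgo2 points, and for Ndn only wild-type replicate 4 reaches the ΔAgo2 points.

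The Snrpn cluster, which corresponds to the human Prader-Willi and Angelman region, held the highest log2 fold change of the 19 genes. Ndn encodes necdin, a growth-suppressing protein of the MAGE family, and lies on the plus strand of chr7:62346569-62350262. It was singled out after its values were seen. It was at 1.59, 0.383, 1.59 and 9.38 CPM in wild-type and at 9.91, 10.6, 5.66 and 7.87 CPM in ΔAgo2 replicates 1 to 4. The first 3 wild-type replicates were below all ΔAgo2 libraries and wild-type replicate 4 was among them. The log2 fold change of Ndn was 1.41, with a standard error of 0.79 and an adjusted p of 0.731 from edgeR. Without wild-type replicate 4 it was 2.86 (standard error 0.51, adjusted p = 0.0465 with edgeR), where Mest and Ndn were called and 0.777% of 14541 genes were called in all, 0.488% lower and 0.289% higher, and 12.2% did not overlap. With sample weights the adjusted p was 0.0115, and with the GC correction the log2 fold change was 0.71.

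Snrpn, which encodes the spliceosomal protein SmN, had 2.07, 0.368, 2.65 and 2.89 CPM in wild-type and 1.71, 1.497, 1.40 and 1.02 CPM in ΔAgo2 replicates 1 to 4. The low wild-type value was in replicate 2, and the log2 fold change of Snrpn was -0.50, with a standard error of 0.57 and an adjusted p of 0.839 from edgeR. It shares 27.3% of its exonic bases with Gm38393 on the same strand, so its counts are uncertain. The log2 ratio of Ndn to Snrpn was -0.73 to 1.70 in wild-type libraries and 2.02 to 2.95 in ΔAgo2 libraries, without overlap (difference 2.42, exact permutation test, p = 0.0286, adjusted p = 0.0571). This ratio rests on the same counts as the tests of both genes. Mkrn3, a makorin ring finger gene, was at 0.170 to 0.732 CPM in wild-type libraries and at 0.665 to 1.01 CPM in ΔAgo2 libraries (log2 fold change 0.75, adjusted p = 0.740 with edgeR).

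Magel2 is another MAGE family gene next to Ndn. Wild-type replicates 1 to 4 held 0, 53, 2 and 16 of its reads, and all 4 ΔAgo2 libraries held 0. It was not tested, and its wild-type counts came mostly from replicates 2 and 4, while wild-type replicate 1 had none as well. Ube3a, the ubiquitin ligase affected in Angelman syndrome, was at 122, 115, 124 and 10.1 CPM in wild-type and at 89.8, 63.7, 114 and 111 CPM in ΔAgo2 replicates 1 to 4. Its fold change depended on wild-type replicate 4: the log2 value was 0.03 with it and -0.34 without it, where the groups did not overlap, with an adjusted p of 0.535 with edgeR. The GC content of Ube3a is 36.9%.

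**Figure D4:**
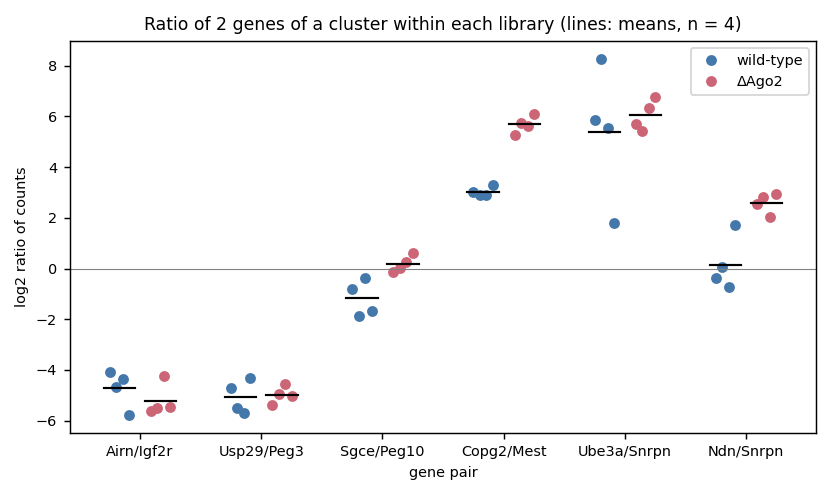
Log2 ratio of the counts of 2 genes of a cluster (vertical axis) within each library, for the 6 pairs with at least 10 counts in every library; points are wild-type (blue) and ΔAgo2 (red) libraries and lines their means (n = 4). Sgce/Peg10, Copg2/Mest and Ndn/Snrpn do not overlap between the genotypes, and the other 3 pairs do.

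The remaining pairs overlapped. Airn is the long non-coding RNA that silences Igf2r in cis, and the log2 ratio of Airn to Igf2r averaged -4.72 ± 0.75 in wild-type and -5.22 ± 0.66 in ΔAgo2 (SD, n = 4; exact permutation test, p = 0.429). For Usp29 and Peg3, which share a promoter region, the difference was 0.08 (exact permutation test, p = 0.8286). For Ube3a and Snrpn it was 0.68 (exact permutation test, p = 0.714), with wild-type values from 1.81 to 8.29.

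All 8 genes with the highest mean TPM were tested, and of these only Peg10 did not overlap between the genotypes. Gnas was at 1087, 998.4, 1291 and 1880 CPM in wild-type and at 1179, 1287, 1142 and 1127 CPM in ΔAgo2 replicates 1 to 4. The highest value was that of wild-type replicate 4, and the log2 fold change of Gnas was -0.15, with a standard error of 0.28 and an adjusted p of 0.907 from edgeR, turning to 0.08 without that library. The different promoters of Gnas, of which some are imprinted and others are not in most tissues, cannot be separated in counts per gene.

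Igf2r encodes the receptor that clears IGF2 and carries lysosomal enzymes. It was at 335, 261, 327 and 141 CPM in wild-type and at 341, 309, 249 and 352.5 CPM in ΔAgo2 replicates 1 to 4, with overlapping groups and a log2 fold change of 0.23 (standard error 0.31), or 0.03 without wild-type replicate 4. Airn ran from 2.58 to 19.9 CPM in wild-type and from 6.79 to 13.2 CPM in ΔAgo2. Its lowest value was that of wild-type replicate 4, and its log2 fold change of -0.49 was -0.81 without that library, where its unadjusted p was under 0.05 and its adjusted p 0.341 with edgeR. Grb10, an adaptor that restrains insulin receptor signaling, was at 103, 125, 144 and 96.3 CPM in wild-type and at 102, 89.2, 112 and 115 CPM in ΔAgo2 replicates 1 to 4. Its log2 fold change was -0.16 (standard error 0.24), and the groups overlapped.

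Slc38a4, an amino acid transporter of placenta and liver, was at 117, 129, 121 and 42.8 CPM in wild-type and at 142, 123, 167 and 203 CPM in ΔAgo2 replicates 1 to 4. Wild-type replicate 4 was far below the other libraries, and the log2 fold change of 0.63 (standard error 0.36, adjusted p = 0.732 with edgeR) was 0.38 without it. Its chromosomal neighbor Slc38a2, also an amino acid transporter, had an unadjusted p of 0.0420 and overlapping groups. Zrsr1, a retrogene related to a splicing factor, was at 68.3, 31.0, 82.5 and 10.9 CPM in wild-type and at 43.6, 44.9, 59.7 and 38.7 CPM in ΔAgo2. Impact, which restrains the amino acid sensing kinase GCN2, was at 42.6, 42.9, 61.9 and 5.25 CPM in wild-type and at 32.2, 29.2, 35.1 and 28.8 CPM in ΔAgo2. For both genes wild-type replicate 4 was the lowest library of all, and the ΔAgo2 values lay between it and the highest wild-type values. Their log2 fold changes were -0.05 and -0.29, with standard errors of 0.51 and 0.55, and -0.36 and -0.64 without that library, with standard errors of 0.30 and 0.18. Without it the groups did not overlap for Impact, which then had an unadjusted p under 0.05 and an adjusted p of 0.194 with edgeR. GC content was 43.4% for Slc38a4, 46.2% for Zrsr1 and 42.1% for Impact, against 57.8% for Gnas. Ndn at 44.5% and Snrpn at 45.5% had their highest wild-type value in replicate 4. The part of GC content in the values of wild-type replicate 4 was not tested gene by gene.

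The 4 other tested genes were low or variable. Peg3, a zinc finger gene, ran from 6.52 to 44.2 CPM in wild-type and from 8.61 to 28.3 CPM in ΔAgo2, and Usp29, a ubiquitin protease gene, from 0.142 to 0.874 and from 0.265 to 0.736 CPM. Kcnq1ot1, the antisense RNA that silences its cluster, ran from 0.311 to 17.4 CPM in wild-type, with the high value in replicate 3, and from 1.85 to 4.33 CPM in ΔAgo2. Phlda2, which limits placental growth, ran from 0.0283 to 0.935 CPM and from 0.261 to 0.417 CPM. The ΔAgo2 values of all 4 lay within the wild-type range, and the log2 fold changes were -0.12, 0.02, -0.80 and -0.72, in this order.

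The other 17 genes were not tested. At or under 3 counts in every library were 10 of them, which include the fetal growth factor Igf2, the cell cycle inhibitor Cdkn1c, the potassium channel gene Kcnq1, the trophoblast factor Ascl2, the Notch-like ligand Dlk1, the non-coding RNA Meg3, Zim1, the dopa decarboxylase gene Ddc, neuronatin (Nnat) and Zdbf2. Zim1 had no count in any library, which at 3 counts allows up to 0.0425 to 0.0931 CPM per library, for counting error only. Igf2 shares 62.8% of its exonic bases with Gm49394 on the same strand, which had no counts, so reads there may have been dropped as ambiguous.

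The other 7 untested genes were above 3 counts in at least 1 library. H19, the non-coding RNA opposite to Igf2 in imprinting, was counted 289, 3, 1 and 10 times in wild-type libraries and 1, 1, 1 and 3 times in ΔAgo2 ones, in replicate order, so that its wild-type level came from replicate 1. Slc22a18, a transporter gene of the Kcnq1 cluster, had 6, 12, 25 and 19 counts in wild-type and 4, 4, 1 and 0 in ΔAgo2. Its CPM values did not overlap between the genotypes (exact permutation test, p = 0.0286), at levels of 0.313 ± 0.214 and 0.0462 ± 0.0422 CPM (SD, n = 4). Mirg reached 11 counts, Rasgrf1 8, Plagl1 5 and Rian 4.

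Of 23 listed regulators of imprints and DNA methylation, 21 were tested and none was called with edgeR, against 0.295% of all tested genes. Ctcfl and Dppa3 had at most 1 count in any library. The 21 regulators were divided, with 13 log2 fold changes above 0, 8 below and a median of 0.10. Trim28, the corepressor recruited by ZFP57, was at 365 ± 240 and 272 ± 38.5 TPM in wild-type and ΔAgo2 (SD, n = 4), Ehmt2, a histone H3 lysine methyltransferase, at 209 ± 69.97 and 178 ± 21.1 TPM, and Uhrf1, which guides maintenance methylation, at 169.9 ± 105 and 187 ± 36.1 TPM. Dnmt3l, a cofactor of the methyltransferases that set imprints, was the only regulator with an unadjusted p under 0.05 (log2 fold change -1.13, adjusted p = 0.665 with edgeR), and its groups overlapped. Of all tested genes, 4.62% were lower at that unadjusted threshold. Zfp57 itself, singled out after its values were seen, was at 26.1 ± 18.0 and 14.7 ± 4.10 TPM in wild-type and ΔAgo2 (SD, n = 4), with a log2 fold change of -0.93 (standard error 0.49, adjusted p = 0.718 with edgeR).

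Of the 46 other genes of the clusters, 26 were tested and none was called with edgeR; 2 had an unadjusted p under 0.05 in the higher direction and 1 in the lower, against 2.72% and 4.62% of all tested genes, with a median log2 fold change of 0.26 against -0.11 over all. In the insulin-like growth factor axis, into which Igf2, Igf2r and Grb10 feed, 10 of 15 genes were tested and none was called with edgeR. For this list and the others here, the share called over all tested genes was 0.295%. At an unadjusted p under 0.05, the RNA-binding protein gene Igf2bp3 was higher (log2 fold change 0.78) and the binding protein gene Igfbp6 lower (log2 fold change -1.53), both with overlapping groups. The shares of all tested genes at that threshold were 2.72% higher and 4.62% lower. Ago2 itself lies in the Peg13-Kcnk9 imprinted domain. Of the 5 genes of this domain 4 were tested, with log2 fold changes from -0.68 to 0.21 and none called with edgeR or at an unadjusted p under 0.05. DESeq2 and limma with sample weights called no gene of these 4 lists either, nor a neighbor of Mest or Peg10, against 2.23% and 1.81% of all genes.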

How the data were processed

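RNA was purified from cultured cells and stranded mRNA libraries were sequenced paired-end. The authors aligned reads to ribosomal RNA and then to mm10 (STAR, per the submitters' processing notes) and used featureCounts to assign them to genes. The deposited count table holds unnormalized whole reads, and the deposited TPM values are scaled by the authors to gene length and library total. The annotation and strand setting of the counting are not given in the sources used here.

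Genotypes and replicate numbers came from the labels. Counts were filtered with filterByExpr, scaled with TMM and tested with the quasi-likelihood test of edgeR 4.0.16 (R 4.3.3), two-sided, with genotype as the only factor and Benjamini-Hochberg adjustment over all 14228 tested genes. The standard error of a log2 fold change was taken as its size over the root of the F statistic. CPM are counts per TMM-scaled library size. Single ratios were compared with an exact permutation test over libraries. Alternatives used DESeq2 1.42.0, limma 3.58.1, other scalings and filters, a loess correction for GC content (span 0.5), a replicate block, and each library left out in turn. Names and positions came from GENCODE M21 (93 identifiers had no name). ΔAgo2 replicates 1 and 2 were closest to each other but differed beyond sampling noise and were counted separately. The genes and lists were chosen with earlier results of these data known. Values in every library are given for imprinted genes past the adjusted or unadjusted threshold of 0.05, without overlap, or among the 8 highest by mean TPM; those of Sgce, Ndn, Snrpn, Ube3a, H19 and Magel2 were added after they were seen. In simulated counts of 14228 genes for this comparison, edgeR called 96 of 200 genes changed by 2 on the log2 scale and 2 others, DESeq2 166 and 63 others, and limma with sample weights 99 and 5 others. The simulation gave both genotypes the same spread for each gene. In the real libraries the wild-type group varied more, so these counts may differ there.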

Additional observations from a re-analysis of the deposited data

Results flagged for a closer look

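In 8 of 62 groups of 4 libraries, the highest or lowest value lay far from the others. The gap to the nearest value is given as a share of the whole range. For independent, normally distributed values, chance gives about 1 such group in 20. The 62 groups share the same libraries, and ratios reuse the counts of genes, so that rate cannot show whether 8 is an excess. Wild-type replicate 4 was the low library for Ube3a (0.971), Slc38a4 (0.913) and Impact (0.849) on the log2 CPM scale. Wild-type replicate 2 was low for Snrpn (0.839), and wild-type replicate 1 was high for H19 in CPM (0.9496). In ΔAgo2 cells, replicate 4 was low for Usp29 (0.927) and Peg10 (0.852), although the Peg10 values spanned only 19.2 to 22.0 CPM. For the log2 ratio of Airn to Igf2r, ΔAgo2 replicate 3 was high (0.890).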

How the results depend on the processing

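The number of all genes called was 42; it was 399 with DESeq2, 257 with sample weights, 143 without a filter, 6 with a stricter filter, 67 with the GC correction, 15 with limma on log2(TPM + 1), and 1 to 113 with 1 library left out. The 1 imprinted gene called became 3 with sample weights, 0 with library size alone, the stricter filter or either TPM scale, and 0 to 2 with 1 library left out. Imprinted genes higher at an unadjusted p under 0.05 went from 0 to 1 with sample weights, library size alone, no filter or the GC correction, to 2 on either TPM scale, and to 0 to 1 with 1 library left out. The 2 lower ones became 4 with DESeq2, 5 without a filter, 1 on log2(TPM + 1), and 2 to 4 with 1 library left out. The added genes were Magel2 and Slc22a18 with DESeq2, and these and H19 without a filter. They are low genes that the filter had removed. In these fits 34 and 35 of the imprinted genes entered, against 19. The 2 that did not overlap became 4 on either TPM scale and 2 to 5 with 1 library left out. The 5 came without wild-type replicate 4, where 12.2% of all genes did not overlap, against 6.07% in the first edgeR fit. Overlap was not computed for DESeq2, sample weights or the block. At the unadjusted threshold, shares over all genes are given for the first edgeR fit only, 2.72% higher and 4.62% lower. The shifts in these counts are thus not read as results about the imprinted genes. The cause of these shifts was not tested, apart from more or fewer genes, or fewer libraries, entering a fit.

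No source says that the replicate numbers pair libraries, and correlations of same-numbered deviations were -0.138, -0.0491, 0.384 and 0.0278, with 1 library correlating best with its own number. With the replicate block, 18 genes were called in all and 0 imprinted ones, with 1 higher and 2 lower at an unadjusted p under 0.05; the block with the GC correction gave 61, 1, 1 and 2. Log2 fold changes that turned sign with the block alone were Kcnq1ot1 0.29, Peg3 0.14, Impact 0.0692 and Zrsr1 0.29, and with the block and GC correction Phlda2 0.0613, Peg3 0.0024, Usp29 -0.0741, Sgce -0.0464, Gnas 0.21 and Zrsr1 0.15.

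Of 19 tested genes, 13 turned sign under at least 1 setting and 6 under none; no value that turned passed the threshold. With sample weights these were Kcnq1ot1 0.0076, Peg3 0.17, Ube3a -0.44 and Gnas 0.11; with library size alone Zrsr1 0.0119; with the GC correction Usp29 -0.21, Sgce -0.33, Copg2 -0.0013, Ube3a -0.0089 and Gnas 0.17. On log2(TPM + 1) they were Peg3 0.24, Grb10 0.0559, Gnas 0.10, Impact 0.28 and Zrsr1 0.47, and on log2(TPM + 0.1) Phlda2 0.11, Airn 0.0002, Peg3 0.34, Grb10 0.059, Snrpn 0.019, Gnas 0.10, Impact 0.37 and Zrsr1 0.51. The TPM scales moved the median of all genes to 0.15 and 0.22, from -0.11. With 1 library left out, the ranges that crossed 0 were Kcnq1ot1 -1.19 to 0.69, Peg3 -0.43 to 0.57, Usp29 -0.32 to 0.29, Ube3a -0.34 to 0.20, Gnas -0.28 to 0.0804, Impact -0.64 to 0.0506 and Zrsr1 -0.36 to 0.35, and for the ratios Usp29/Peg3 -0.14 to 0.33 and Ube3a/Snrpn -0.51 to 1.65. The 3 ratios without overlap stayed so with 1 library left out. This was fixed in advance, because removing a library cannot create an overlap. The 10 genes at or under 3 counts hold too few reads for a difference to be detectable at this depth.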
